A study of Rattus norvegicus with 6 samples.

Results

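The 10 genes described here, Fasn, Acaca, Acly, Scd, Elovl6, Srebf1, Me1, Gpam, Dgat1 and Dgat2, encode enzymes of de novo lipogenesis and triglyceride synthesis and 1 transcription factor that activates them. They were chosen by name, and each name matched 1 row of the 30562 genes in the deposited count table. In de novo lipogenesis, citrate exported from mitochondria is cleaved to acetyl-CoA, which is carboxylated to malonyl-CoA and condensed with the help of NADPH into palmitate. Palmitate is then elongated and desaturated, and its acyl chains are joined to glycerol to form triglyceride. The pathway is best known from liver and fat, whereas the healthy disc is avascular and stores little fat.

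RNA was measured in 6 libraries of rat intervertebral disc. The rats were male, wild-type Sprague-Dawley animals of 12 weeks whose tail disc had been punctured with a needle, and both groups received 10 μL into the disc from 24 h after surgery. In the AF-PTK@LEV@SPP1 group (3 libraries), this was a vesicle made by fusing liposomes with detoxified bacterial outer membrane vesicles, which carries on a linker sensitive to reactive oxygen species a peptide for binding the annulus fibrosus, and encloses an siRNA against Spp1 at 1 mg/kg. In the Control group (3 libraries), it was PBS according to the methods and no treatment according to the sample labels. The descriptions differ further: the methods name disc tissue and a course of 8 weeks, the labels a treatment of 14 days and macrophages sorted from discs of mice. Puncture is an acute injury model, and no uninjured disc was compared here.

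The libraries held 17942989, 16565291 and 17489851 counts in Control and 17074981, 15560728 and 17855184 in the group labelled AF-PTK@LEV@SPP1. Levels are given as normalized CPM, counts relative to library size after scaling with the trimmed mean of M-values. The methods describe independent animals, but the counts of Control replicates 2 and 3 varied only 1.33 times as much as counting noise, against 51.3 to 107 times for the 5 other pairs of libraries within a group. This pair therefore counted as 1 sample, which left n = 2 distinct Control samples and n = 3 samples labelled AF-PTK@LEV@SPP1. Spp1, the target of the siRNA, stood at 8122, 4411 and 4417 normalized CPM in Control replicates 1, 2 and 3 and at 8054, 6903 and 8461 in those labelled AF-PTK@LEV@SPP1. It was not lower in the latter, so all directions below refer to the labels. The 6 cartilage markers summed to 18256.5 to 44797 normalized CPM over the 6 libraries, with Col2a1 at 13873 to 31980. The 9 macrophage markers summed to 646 to 2937, with Lyz2 at 272 to 1833 and Cd68 at 28.5 to 150.03. Markers of both kinds were thus present in every library.

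The first question was whether lipogenesis genes differed between the groups. All 10 genes had enough counts to be tested, and edgeR's quasi-likelihood test called 0 of them at a Benjamini-Hochberg adjusted p under 0.05, against 3.70% of the 15537 genes tested. At an unadjusted p under 0.05 it counted 1, Srebf1, against 25.4% of all genes. DESeq2 called 1, again Srebf1, against 16.6% of all genes, and limma-voom 0, against 2.92%. All 10 log2 fold changes (group labelled AF-PTK@LEV@SPP1 over Control) were above 0, beside 54.2% of all genes tested. They ran from 0.01 for Acly to 1.94 for Scd, and those of Acly and Elovl6 turned below 0 under other settings. Their median was 0.38, beside 0.05 over all genes tested, and it was 0.12 without AF-PTK@LEV@SPP1 replicate 2, 0.24 without the near-identical Control pair and 0.51 without Control replicate 1. For Acaca, Scd, Srebf1, Me1 and Dgat1, 5 of the 10, every AF-PTK@LEV@SPP1-labelled library lay above every Control library, as did 21.8% of the genes tested. For 0 of the 10 did every such library lie below Control, as for 20.1% of the genes tested. With all 6 libraries kept as separate samples, 1 of the 10, Srebf1, was called, against 18.1% of 15042 genes. In bulk tissue, fewer cells of a type and less RNA per cell cannot be told apart.

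**Figure D1:**
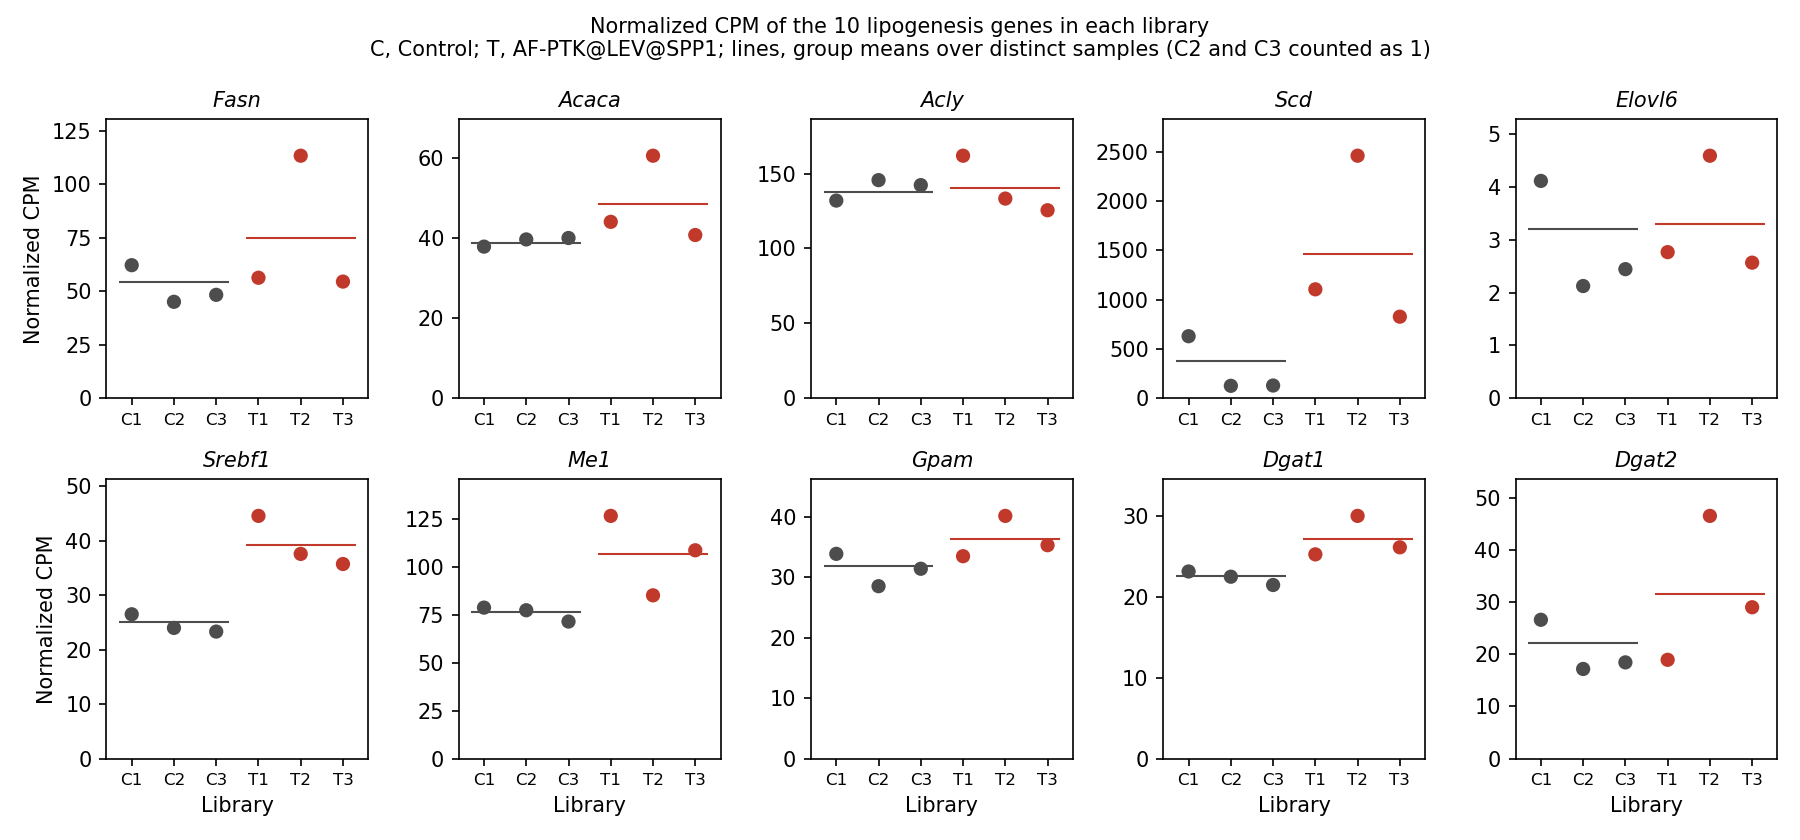
Normalized CPM (vertical axes, each starting at 0) of the 10 lipogenesis genes in 3 libraries of Control (C) and 3 labelled AF-PTK@LEV@SPP1 (T); points are libraries and lines are group means over distinct samples. Scd spans 128 to 2461 normalized CPM, while Srebf1 spans 23.3 to 44.6 with no overlap between the groups.

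Acly, the ATP citrate lyase that makes cytosolic acetyl-CoA from citrate, had 132, 146 and 142 normalized CPM in Control replicates 1, 2 and 3 and 162, 133 and 125 in those labelled AF-PTK@LEV@SPP1. The groups overlapped, with means of 138 ± 8.47 (SD, n = 2 distinct samples) and 140.2 ± 19.2 (SD, n = 3). The 95% confidence interval of its log2 fold change in edgeR was -0.38 to 0.41. Acly overlaps Fkbp10 and Eif1 on the other strand, and whether counting used strand was not given in the sources used here, although the labels name a stranded kit.

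Me1, the cytosolic malic enzyme and a source of the NADPH that fatty acid synthesis consumes, had 78.9, 77.5 and 71.6 normalized CPM in Control and 127, 85.3 and 109 in those labelled AF-PTK@LEV@SPP1. The lowest of the latter lay just above the highest Control library, and the means were 76.7 ± 3.06 (SD, n = 2) and 107 ± 20.8 (SD, n = 3). The log2 fold change was 0.47 (standard error 0.19, edgeR adjusted p = 0.205), and 0.30 without AF-PTK@LEV@SPP1 replicate 1. Idh1, the cytosolic isocitrate dehydrogenase and another NADPH source, did not share this order. It was lower in all 3 of those labelled AF-PTK@LEV@SPP1 than in each Control library, at a log2 fold change of -0.27 (adjusted p = 0.204). Pgd was not analysed here.

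In the acetyl-CoA supply, the gene apart from the rest was Pc, the pyruvate carboxylase that replenishes the oxaloacetate needed for citrate. It had 23.3, 14.7 and 16.1 normalized CPM in Control and 48.6, 53.0 and 36.0 in those labelled AF-PTK@LEV@SPP1. Every library of the latter group lay above every Control library. The log2 fold change was 1.24 (standard error 0.26, edgeR adjusted p = 0.0686), and with the 6 libraries kept it was 1.34 (adjusted p = 0.0144), with adjusted p from 0.00106 to 0.248 over all alternatives. Pc overlaps Lrfn4 on the other strand, whose counts were 162, 174 and 173 in Control and 121, 71 and 96 in the group labelled AF-PTK@LEV@SPP1. The citrate carrier gene Slc25a1 and the acetyl-CoA synthetase gene Acss2 overlapped between groups, with log2 fold changes of -0.21 and 0.05. Without Control replicate 1 these were -0.13 and -0.08, and Acss2 stood at -0.02 without AF-PTK@LEV@SPP1 replicate 2.

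Acaca, acetyl-CoA carboxylase 1, which makes malonyl-CoA in the committed step of the pathway, had 38.0, 39.8 and 40.1 normalized CPM in Control and 44.2, 60.7 and 40.9 in those labelled AF-PTK@LEV@SPP1. The groups were separated only by the small gap between Control replicate 3 and AF-PTK@LEV@SPP1 replicate 3, and they overlapped when library totals or DESeq2-type (RLE) factors were used for scaling. Its log2 fold change was 0.31 (standard error 0.20, edgeR adjusted p = 0.371), and 0.12 without AF-PTK@LEV@SPP1 replicate 2.

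Fasn, the fatty acid synthase that builds palmitate, had 62.2, 45.1 and 48.4 normalized CPM in Control and 56.3, 113 and 54.5 in those labelled AF-PTK@LEV@SPP1. Replicate 2 of the latter group stood far above the 5 others, and the remaining libraries of both groups overlapped. The means were 54.5 ± 10.9 (SD, n = 2) and 74.7 ± 33.4 (SD, n = 3), with a log2 fold change of 0.45 (standard error 0.38, edgeR adjusted p = 0.495). Without AF-PTK@LEV@SPP1 replicate 2 it was 0.02, and without the near-identical Control pair 0.25.

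Of the other genes at this step, Thrsp is described because of its values, seen before it was picked from its list. It encodes the thyroid hormone responsive Spot 14 protein, known to accompany lipogenesis in fat and liver. Thrsp had 27.5, 2.64 and 1.71 normalized CPM in Control replicates 1, 2 and 3, from 536, 41 and 28 counts. Those labelled AF-PTK@LEV@SPP1 had 51.4, 148 and 59.1 normalized CPM. All of them lay above every Control library, and Control replicate 1 lay far above the near-identical pair. Its fitted log2 fold change was 2.55 (standard error 1.14, edgeR adjusted p = 0.235), with a 95% confidence interval of -0.33 to 5.42. It moved to 5.29 without Control replicate 1 and to 1.63 without the near-identical pair. Its homolog Mid1ip1 overlapped between the groups, at 0.19, and Acacb, the carboxylase whose malonyl-CoA restrains fatty acid oxidation, had 0.99 without overlap (adjusted p = 0.22), or 0.56 without AF-PTK@LEV@SPP1 replicate 2. All 5 chain building genes, which include Fasn and Acaca, had log2 fold changes above 0, from 0.19 to 2.55, beside 54.2% of all genes tested. In the distinct samples edgeR, DESeq2 and limma-voom called 0 of the 5, beside 3.70%, 16.6% and 2.92% of all genes. The 6-library fit also called 0 (18.1%), and in the distinct samples 0 had an unadjusted edgeR p under 0.05 (25.4%).

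Elovl6, the elongase that extends palmitate to stearate, was low in every library. It had 4.11, 2.12 and 2.44 normalized CPM in Control, from 80, 33 and 40 counts, and 2.76, 4.59 and 2.56 in those labelled AF-PTK@LEV@SPP1, from 47, 76 and 45 counts. The groups overlapped through Control replicate 1, the second highest library, with means of 3.20 ± 1.29 (SD, n = 2) and 3.30 ± 1.11 (SD, n = 3). The confidence interval of the log2 fold change, -1.01 to 1.10, was wide at this depth, and the value was 0.51 without Control replicate 1, -0.32 without the near-identical pair and -0.26 without AF-PTK@LEV@SPP1 replicate 2.

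Of the 13 elongation genes, 12 were tested. edgeR called 0 of them in the distinct samples (3.70% of all genes), with 5 at an unadjusted p under 0.05 (25.4%). DESeq2 called 1 of the 12 (16.6%) and limma-voom 0 (2.92%). Their log2 fold changes ran from -0.28 to 2.55 with a median of 0.17, or 0.58 without Control replicate 1, and 0.09 without either the near-identical pair or AF-PTK@LEV@SPP1 replicate 2. Elovl2 and Elovl7, the 2 with the largest values, did not exceed 1.21 normalized CPM in any library. Elovl3 did not pass the filter. In the fit that kept 6 libraries, which called 18.1% of all genes, Tecr, the enoyl-CoA reductase that completes each elongation cycle, and Elovl4, the elongase of very long chains, were called. Tecr had 35.6, 27.7 and 25.5 normalized CPM in Control and 52.1, 71.6 and 53.8 in the group labelled AF-PTK@LEV@SPP1, and its adjusted p was 0.0802 in the distinct samples, 0.0178 in the 6 libraries and 0.00478 to 0.293 over all alternatives. Elovl4 had 5.55, 5.79 and 5.13 in Control and 11.7, 7.30 and 12.8 in the group labelled AF-PTK@LEV@SPP1, with adjusted p of 0.133, 0.0405 and 0.0405 to 0.369 in the same order. Both genes were without overlap between the groups.

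Scd, stearoyl-CoA desaturase 1, which introduces a double bond into stearate and palmitate, varied most among the 10. Control replicates 1, 2 and 3 had 631, 128 and 131 normalized CPM, from 12280, 1983 and 2140 counts. Those labelled AF-PTK@LEV@SPP1 had 1106, 2461 and 829, from 18813, 40792 and 14540 counts. The groups did not overlap, but Control replicate 1 was closer to AF-PTK@LEV@SPP1 replicate 3 than to the other Control libraries. The means were 379.9 ± 355 (SD, n = 2) and 1465 ± 874 (SD, n = 3), so the SD in Control was close to the mean. The log2 fold change of 1.94 (standard error 0.84) did not pass edgeR's test (adjusted p = 0.226), and its 95% confidence interval was -0.19 to 4.07. With the 6 libraries kept it was 2.31 (adjusted p = 0.0878), and over all alternatives the adjusted p ranged from 0.0524 to 0.478. The value moved most with the Control samples, to 3.49 without Control replicate 1 and to 1.21 without the near-identical pair.

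Scd2, the paralog that performs the same reaction and lies 87514 bases from Scd on chromosome 1 with 1 gene between them, was set beside it after its values were seen. It had 466, 600.5 and 593 normalized CPM in Control and 813, 474 and 565 in those labelled AF-PTK@LEV@SPP1. Its groups overlapped, and the log2 fold change was 0.21 (standard error 0.29, edgeR adjusted p = 0.68), which turned to -0.07 without AF-PTK@LEV@SPP1 replicate 1. Fads1 and Fads2, the desaturases of polyunsaturated fatty acids, overlapped too, at -0.14 and 0.28. They changed direction with a Control sample left out, Fads1 to 0.29 without replicate 1 and Fads2 to -0.10 without the near-identical pair. Fads2 overlaps Fth1 on the other strand. The counts of Fth1 were 36198, 46750 and 49809 in Control and 14553, 16450 and 17829 in the group labelled AF-PTK@LEV@SPP1. Scd and Scd2 differed most in their order, since Control replicate 1 and AF-PTK@LEV@SPP1 replicate 2, the highest libraries of their groups for Scd, were the lowest of their groups for Scd2. The number of Scd counts per Scd2 count was 1.35, 0.212 and 0.220 in Control and 1.36, 5.20 and 1.47 in those labelled AF-PTK@LEV@SPP1. On this ratio Control replicate 1 all but equalled AF-PTK@LEV@SPP1 replicate 1. The mean log2 ratio was -0.89 ± 1.87 (SD, n = 2) in Control and 1.12 ± 1.09 (SD, n = 3) in the other group, a description with no test, since Scd2 was picked for its values. The 2 genes are alike in sequence, and how the counting treated reads shared between them was not given in the sources used here.

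**Figure D2:**
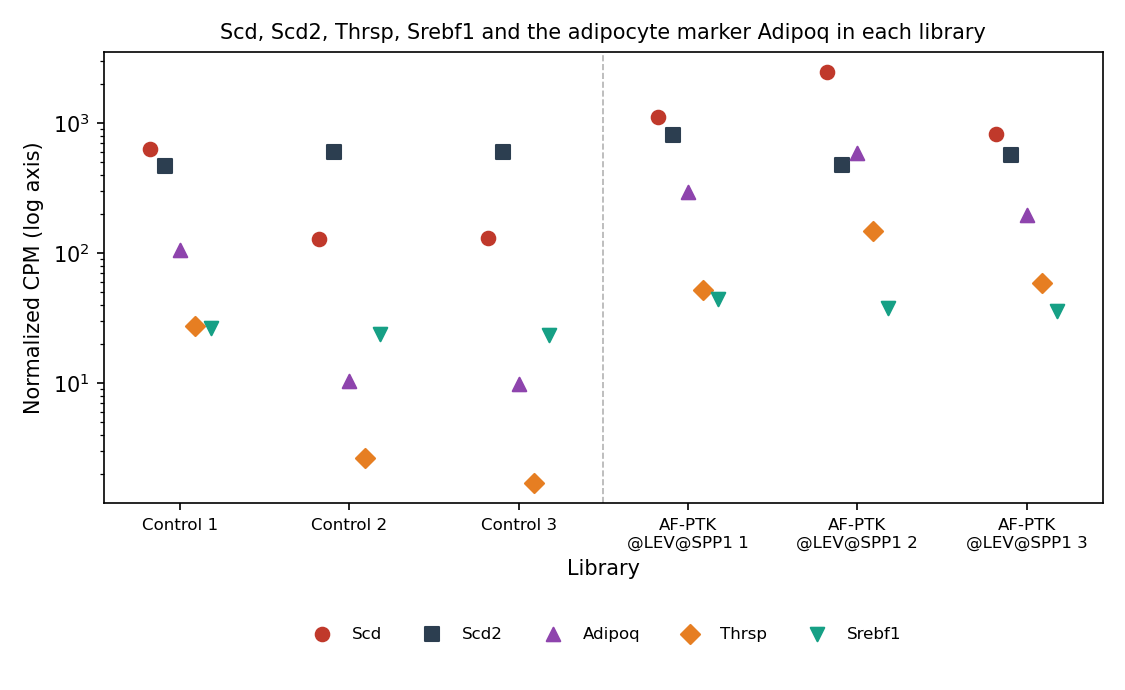
Normalized CPM on a log axis of Scd, Scd2, Thrsp, Srebf1 and the adipocyte marker Adipoq in each of the 6 libraries. Scd, Thrsp and Adipoq are lowest in Control replicates 2 and 3 and highest in AF-PTK@LEV@SPP1 replicate 2, while Scd2 stays between 466 and 813.

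Gpam, the mitochondrial glycerol-3-phosphate acyltransferase that starts glycerolipid assembly, had 33.8, 28.5 and 31.4 normalized CPM in Control and 33.5, 40.1 and 35.3 in those labelled AF-PTK@LEV@SPP1. Control replicate 1 lay above AF-PTK@LEV@SPP1 replicate 1, so the groups overlapped. The difference on the log2 scale was 0.18 (standard error 0.13, edgeR adjusted p = 0.43), moving to 0.09 without the near-identical Control pair and to 0.10 without AF-PTK@LEV@SPP1 replicate 2.

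The last step, from diacylglycerol to triglyceride, is catalysed by the unrelated enzymes of Dgat1 and Dgat2. Dgat1 had 23.2, 22.5 and 21.5 normalized CPM in Control and 25.3, 30.0 and 26.2 in those labelled AF-PTK@LEV@SPP1. Dgat2 had 26.6, 17.2 and 18.4 in Control and 18.9, 46.5 and 29.0 in the other group. Dgat1 was narrow within groups and did not overlap, whereas Dgat2 overlapped and was led by AF-PTK@LEV@SPP1 replicate 2. Their log2 fold changes were 0.26 (standard error 0.13, edgeR adjusted p = 0.267) for Dgat1 and 0.50 (standard error 0.41, adjusted p = 0.488) for Dgat2. The value of Dgat2 was 0.11 without AF-PTK@LEV@SPP1 replicate 2, 0.23 without the near-identical Control pair and 0.80 without Control replicate 1. Dgat1 overlaps Hsf1 on the other strand.

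Of the 15 triglyceride assembly genes, 8 had log2 fold changes above 0 and 7 below, from -0.62 to 1.30 with a median of 0.04, which ran from -0.13 without AF-PTK@LEV@SPP1 replicate 2 to 0.15 without replicate 1 of that group. edgeR called 0 of them in the distinct samples, beside 3.70% of all genes, with 2 at an unadjusted p under 0.05 (25.4%). DESeq2 called 1 (16.6%) and limma-voom 0 (2.92%). In the 6 libraries edgeR called 2, Lpin1 and Agpat2 (18.1%). Lpin1 encodes lipin 1, the phosphatidate phosphatase that makes diacylglycerol. It had 14.6, 9.78 and 11.4 normalized CPM in Control and 29.2, 41.0 and 23.4 in those labelled AF-PTK@LEV@SPP1. The groups did not overlap, with a log2 fold change of 1.30 (standard error 0.29) and an adjusted p of 0.0795, or 0.0179 with the 6 libraries (0.00241 to 0.296 over all alternatives). Agpat2, an acyltransferase needed to make phosphatidate in fat, had 12.6, 14.7 and 13.4 in Control and 20.7, 21.5 and 17.1 in those labelled AF-PTK@LEV@SPP1. It too was without overlap, at a log2 fold change of 0.56 with an adjusted p of 0.117, or 0.0376 with the 6 libraries (0.0376 to 0.29 over all alternatives). Agpat2 overlaps Egfl7 on the other strand.

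Srebf1, which encodes the sterol regulatory element-binding protein SREBP-1 that activates transcription of lipogenic enzymes, had 26.5, 24 and 23.3 normalized CPM in Control replicates 1, 2 and 3, from 516, 373 and 382 counts. Those labelled AF-PTK@LEV@SPP1 had 44.6, 37.6 and 35.7, from 758, 623 and 627 counts. Both groups were tight and well apart, with means of 25.1 ± 2.01 (SD, n = 2) and 39.3 ± 4.66 (SD, n = 3). It was the only member whose exact permutation p reached 0.1, the floor of this design. The log2 fold change was 0.64 (standard error 0.14) with a 95% confidence interval of 0.28 to 1.00, and its adjusted p over all genes in edgeR was 0.0779. Keeping the 6 libraries gave 0.67 (adjusted p = 0.0147) and DESeq2 on the distinct samples 0.62 (adjusted p = 0.012), with adjusted p from 0.012 to 0.296 over all alternatives. The call thus rested on whether the near-identical Control pair counted once or as separate samples, and on the tool. In the distinct samples DESeq2 called 16.6% of all genes and edgeR 3.70%. On a single simulated data set DESeq2 recovered more of the changed genes than edgeR, and a larger share of its calls was false. The count does not separate the transcript forms of Srebf1, and SREBP-1 is regulated largely by cleavage of the protein, which was not measured. The gene overlaps Rai1 on the other strand, whose counts were 467, 367 and 438 in Control and 572, 417 and 515 in the group labelled AF-PTK@LEV@SPP1.

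Of the 11 regulators listed, 9 were tested, with 5 log2 fold changes above 0 and 4 below and a median of 0.03, which ran from -0.11 without AF-PTK@LEV@SPP1 replicate 1 to 0.22 without the near-identical Control pair. edgeR called 0 of the 9 in the distinct samples (3.70% of all genes), with 2 at an unadjusted p under 0.05 (25.4%). DESeq2 called 1, Srebf1 (16.6%), and limma-voom 0 (2.92%). Scap, the escort of SREBP to the Golgi, was the 1 gene called lower in the 6 libraries, a fit that called 18.1% of all genes. It had 40.7, 49.2 and 45.7 normalized CPM in Control and 34.3, 36.7 and 33.4 in those labelled AF-PTK@LEV@SPP1, without overlap. Its log2 fold change was -0.35 (adjusted p = 0.154), or -0.38 (adjusted p = 0.0467) with the 6 libraries, and its adjusted p was 0.0467 to 0.468 over all alternatives. Insig1, which retains the SREBP-Scap complex in the endoplasmic reticulum, had the lowest log2 fold change of the group, -0.65 (adjusted p = 0.393), with -1.21 without AF-PTK@LEV@SPP1 replicate 1 and -0.37 without replicate 3. Srebf2, the paralog that favours cholesterol genes, stood at -0.04, and at 0.03 without the near-identical Control pair and 0.02 without AF-PTK@LEV@SPP1 replicate 2. Mlxipl and Mbtps2 were not analysed here.

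**Figure D3:**
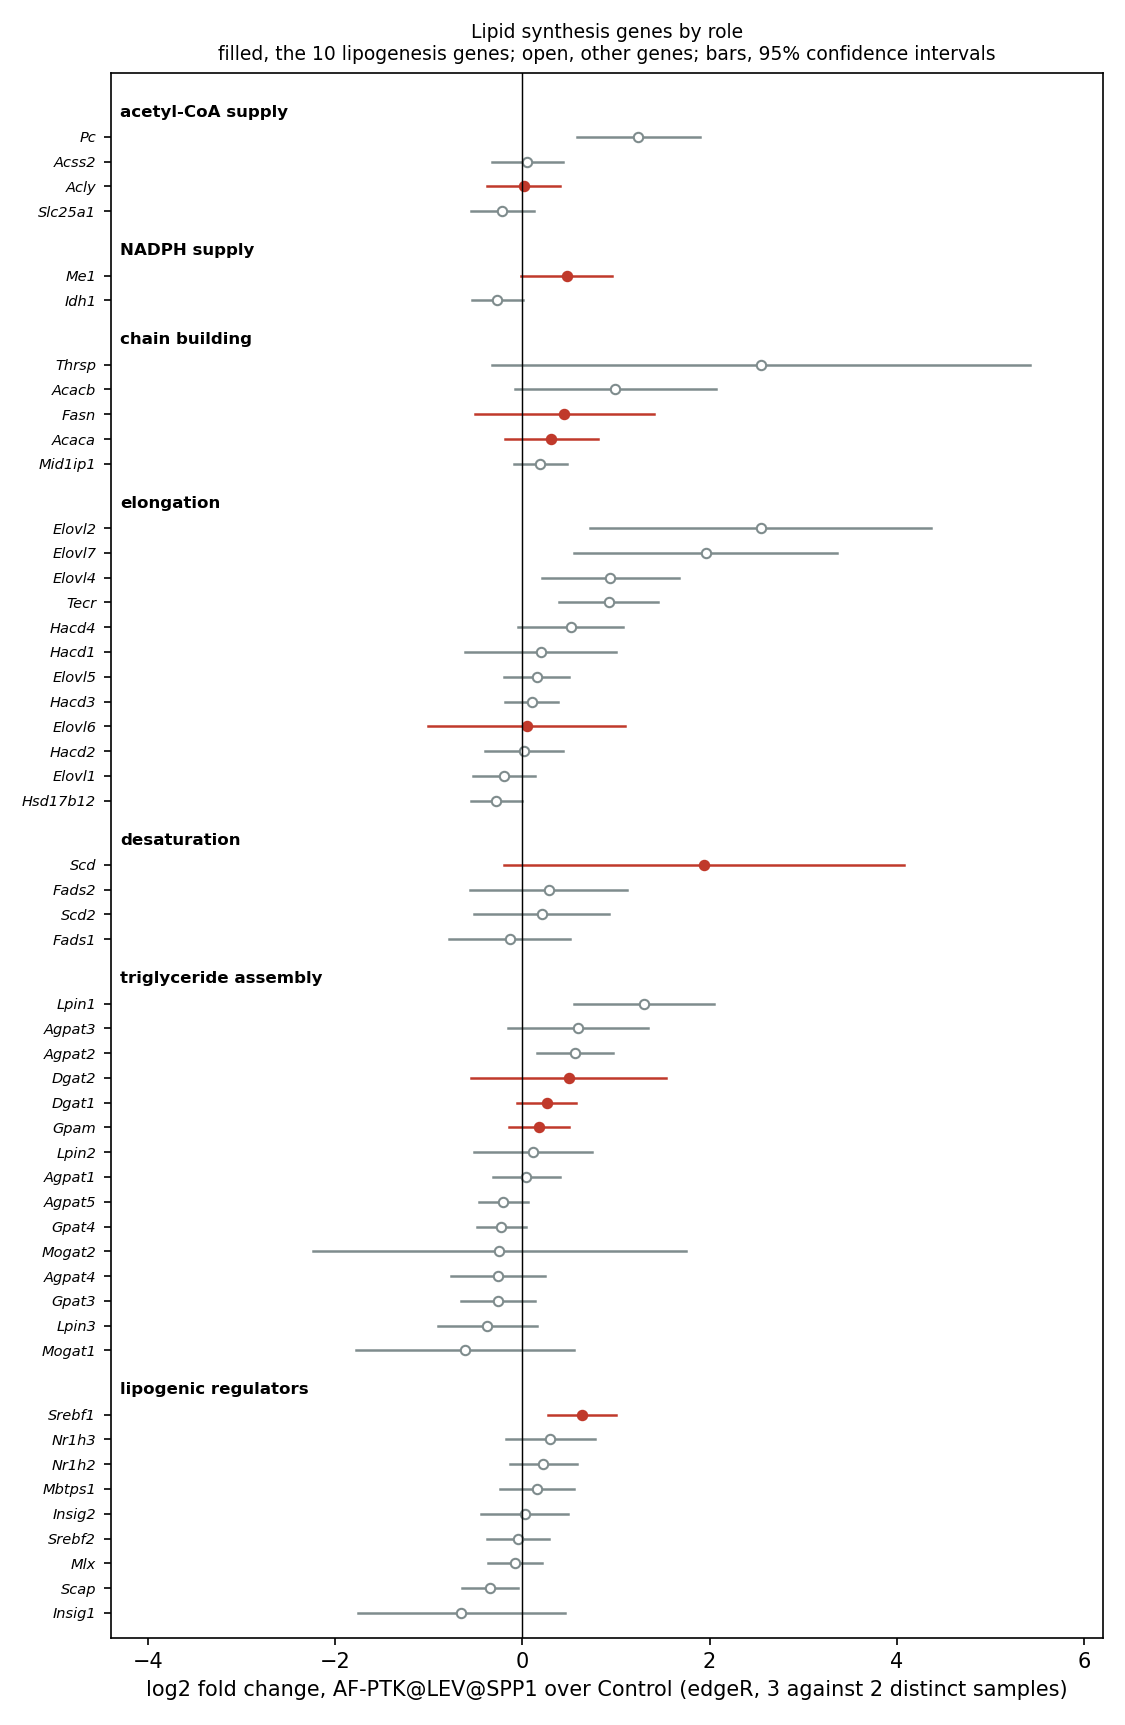
Log2 fold change (AF-PTK@LEV@SPP1 over Control, horizontal axis) of the lipid synthesis genes reported here, grouped by role; points are edgeR estimates over 3 against 2 distinct samples and bars are 95% confidence intervals. The 10 lipogenesis genes (filled) lie above 0, from 0.01 to 1.94, though Acly and Elovl6 turn below 0 under other settings, and the other genes (open) lie on both sides.

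Together, 46 other genes of lipid synthesis were listed, of which 42 were tested. edgeR called 0 of them in the distinct samples (3.70% of all genes), with 9 at an unadjusted p under 0.05 (25.4%). DESeq2 called 3 (Pc, Tecr and Lpin1), against 16.6% of all genes, and limma-voom 0 (2.92%). In the 6 libraries, 40 were tested, with 5 called higher and 1 lower, beside 18.1% of all genes called in that fit. Their median log2 fold change was 0.08, close to the 0.05 of all genes tested, with 25 above 0 and 17 below, and it moved to 0.03 without Control replicate 1 and to 0.01 without AF-PTK@LEV@SPP1 replicate 1. Without overlap between the groups, 11 of the 42 were higher and 6 lower in those labelled AF-PTK@LEV@SPP1, beside 21.8% and 20.1% of all genes tested.

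The 10 genes did not follow 1 pattern over the libraries. AF-PTK@LEV@SPP1 replicate 2 was the highest library for 7 of them, and AF-PTK@LEV@SPP1 replicate 1 for the other 3, Acly, Srebf1 and Me1. Within Control, replicate 1 was the highest library for 8 of the 10. The highest library exceeded the lowest 19.3-fold for Scd and 1.29-fold to 2.71-fold for the 9 others. Summed over the 10 genes, the level was 1056, 529.8 and 530.1 normalized CPM in Control and 1620.4, 3013 and 1287 in those labelled AF-PTK@LEV@SPP1. Without Scd the sums were 425, 402 and 399 in Control and 514, 551 and 458 in the other group. The wide spread of the sum was thus that of Scd, and the 9 other genes together varied less.

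The genes outside all lists whose profile was most like the median profile of the 10 were Sesn1, Apeh, Selenoo, Hsdl2 and Cir1. Likeness was the root mean square difference of centred log2 CPM over the 5 distinct samples, compared for the 9987 genes whose mean log2 CPM was 3 or more, and ranged from 0.0376 for Sesn1 to 0.0593 for Cir1. Sesn1 had 24.1, 18.4 and 19.0 normalized CPM in Control and 25.9, 31.6 and 26.3 in those labelled AF-PTK@LEV@SPP1. Among the 10 themselves, the same difference to their median profile ran from 0.0943 for Dgat1 to 1.17 for Scd. Sesn1 and the 4 others had edgeR adjusted p from 0.179 to 0.239.

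Fat cells express most of the lipogenesis genes strongly, and all 10 adipocyte markers were higher in every AF-PTK@LEV@SPP1-labelled library than in every Control library, beside 21.8% of all genes tested. Their summed level was 1456, 314 and 316 normalized CPM in Control replicates 1, 2 and 3 and 4067, 4323 and 2564 in those labelled AF-PTK@LEV@SPP1. Control replicate 1 again stood between the near-identical pair and the other group, as it did for Scd and Thrsp. The most abundant of these markers, Car3, which skeletal muscle also expresses, had 924, 210.3 and 208 normalized CPM in Control and 2927, 2467 and 1709.9 in the other group. Adipoq, the adipocyte hormone adiponectin, had 106, 10.3 and 9.89 in Control and 296, 588 and 195 in the other group. The 6 libraries thus ran, from high to low, in nearly the same order for Adipoq as for Scd, with only the near-identical pair exchanged. The median log2 fold change of the 10 markers was 2.12, or 3.53 without Control replicate 1 and 1.40 without the near-identical pair. edgeR called 0 of them in the distinct samples (adjusted p from 0.0748 to 0.406), beside 3.70% of all genes. It counted 7 at an unadjusted p under 0.05 (25.4%) and called 2 in the 6 libraries (18.1%). DESeq2 called 7 of these markers, beside 16.6% of all genes, and limma-voom 0 (2.92%), and each had counts in every library. Their part in the values of Scd and the other lipogenesis genes was not tested.

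Sebaceous glands are another site of high Scd expression. The sebocyte markers Awat1 and Dgat2l6 were at 0 counts in all 6 libraries, where a count of 0 allows up to 3 counts or 0.167 to 0.193 CPM, and Awat2 did not exceed 0.181. Krt79 led this list, with 22.8, 1.42 and 1.83 normalized CPM in Control and 30.0, 38.6 and 19.8 in those labelled AF-PTK@LEV@SPP1. Its groups overlapped. Mc5r, the other sebocyte marker tested, lay wholly above Control, as did 21.8% of all genes tested. Its log2 fold change was 1.98, and 1.29 to 2.78 with a sample left out. edgeR called 0 of these 2 genes in the distinct samples, beside 3.70% of all genes. The 5 keratinocyte markers in the table summed to between 5.37 and 7.76 in each library, led by Krt10, and Krt5 did not exceed 0.235. The sum hides opposite directions, since Krt10 and Krt1 were higher in every AF-PTK@LEV@SPP1-labelled library than in every Control library, while the desmoglein gene Dsg1 was lower, at 1.18, 1.09 and 0.916 in Control and 0.118, 0.181 and 0.228 in the other group. Its log2 fold change was -2.60 (edgeR adjusted p = 0.0515, or 0.00991 with the 6 libraries, and 0.00991 to 0.195 over all alternatives).

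Markers of other cell types also differed between libraries. The log2 fold changes were above 0 for all 7 skeletal muscle, 4 erythroid, 6 tested neutrophil, 8 Schwann cell and 4 notochordal markers and below 0 for 8 of 9 macrophage and 4 of 5 endothelial markers. Over all genes tested, 54.2% were above 0. Without AF-PTK@LEV@SPP1 replicate 2, the muscle marker Myh2 turned from 0.94 to -1.10 and Acta1 moved from 2.18 to 0.84. The endothelial markers Kdr and Tek, at 0.03 and -0.02, changed direction without Control replicate 1, and Kdr also without AF-PTK@LEV@SPP1 replicate 2 and Tek without replicate 1 of that group. Skeletal muscle markers, led by Acta1, summed to 1008, 1269 and 1286 normalized CPM in Control and 939, 9698 and 2539 in those labelled AF-PTK@LEV@SPP1. The library highest for Scd, Fasn and Dgat2, AF-PTK@LEV@SPP1 replicate 2, was thus also the highest for muscle. Erythroid markers, led by Slc4a1, summed to 112, 39.2 and 34.5 in Control and 86.6, 1419 and 665 in the other group. Neutrophil markers, led by S100a9, summed to 1094, 164 and 154 in Control and 276, 2647 and 3666 in the other group. These lists were high in AF-PTK@LEV@SPP1 replicates 2 and 3 but not in replicate 1. Schwann cell markers, led by Pmp22, summed to 216, 289 and 284 in Control and 378, 1016 and 1535 in the other group. Notochordal markers, led by Cd24, summed to 755, 323 and 316 in Control and 4219, 1501 and 1782 in the other group. The highest of these, AF-PTK@LEV@SPP1 replicate 1, was also the highest library for Srebf1, Me1 and Acly. edgeR called 0 Schwann cell and notochordal markers in the distinct samples, beside 3.70% of all genes. Without AF-PTK@LEV@SPP1 replicate 1 it called 3 Schwann cell markers and 1 erythroid marker, Alas2, in a fit that called 113 of 15363 genes. DESeq2 called 7 of 8 Schwann cell and 4 of 4 notochordal markers (16.6% of all genes) and limma-voom 0 (2.92%). The 6-library fit called 4 of 6 and 2 of 4 (18.1%), and 7 and 4 lay wholly above Control (21.8%). Of the muscle, erythroid and neutrophil markers, DESeq2 called 0, 1 and 0 (16.6% of all genes), and 0 lay wholly above Control (21.8%). Macrophage markers, led by Lyz2, summed to 2937, 2026 and 2006 in Control and 646, 1848 and 1896 in the other group, and 2 of the 9, Cd68 and Cd14, were called lower (edgeR adjusted p = 0.0231 and 0.0119), against 3.70% of all genes called in either direction. DESeq2 called 4 of the 9 (16.6% of all genes), limma-voom 2 (2.92%) and the 6-library fit 3 (18.1%), and 5 lay wholly below Control (20.1%). With a sample left out, Cd68 lost the call in each of the 5 fits (up to 0.139) and Cd14 in 3, those without the near-identical Control pair (0.0673), AF-PTK@LEV@SPP1 replicate 2 (0.0679) or replicate 3 (0.13). Endothelial markers, led by Pecam1, summed lower in all 3 of those labelled AF-PTK@LEV@SPP1, at 461, 567 and 554 in Control and 345, 402 and 399.7 in the other group. Of the 5, edgeR called 0 in the distinct samples (lowest adjusted p = 0.0762, beside 3.70% of all genes), DESeq2 2 (16.6%) and limma-voom 0 (2.92%). The 6-library fit called 3 (18.1%), and 3 lay wholly below Control (20.1%). The remaining lists overlapped between the groups, with summed levels of 18256.5 to 44797 normalized CPM for cartilage (led by Col2a1), 2150.2 to 4786 for annulus and tendon (led by Fmod) and 1648 to 4216 for osteoblasts (led by Ibsp). Within the cartilage list, Chad, which encodes the matrix protein chondroadherin, was called higher, at 222, 465 and 467 in Control and 2875, 1799 and 3263 in the other group (log2 fold change 2.93, edgeR adjusted p = 0.0454, and up to 0.163 over all alternatives), a call lost with any 1 of the 5 samples left out and with the replicate block. Chad overlaps Acsf2 on the other strand. In these lists, unlike that of sebocytes, each gene had a count in at least 1 library. The part of these cell types in the levels of the lipogenesis genes was not tested.

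Promoter sequences from RefSeq (GRCr8 build, 250 bases before to 50 after a gene's start) were matched for 5 of the 10 genes, Acly, Scd, Srebf1, Me1 and Gpam, and for Scd2 and Thrsp. Fasn, Acaca, Elovl6, Dgat1 and Dgat2 had no entry. The motifs searched, on both strands, were CACGTG (E-box core), CCAAT (NF-Y box), GGGCGG (GC box) and TCACNCCAC (sterol regulatory element core), which occur in 6.42%, 37.5%, 33.1% and 1.12% of the 33469 promoters in the table. CACGTG and TCACNCCAC were found in 0 of these promoters. Both Srebf1 starts held CCAAT and GGGCGG, Acly held 1 CCAAT and 3 GGGCGG, Me1 held 5 GGGCGG and Gpam 1 CCAAT. Thrsp, whose levels were ordered much like those of Scd, held 1 CCAAT and 1 GGGCGG. The neighbours Scd and Scd2, whose levels differed in their order over the libraries, also differed here, with 0 matches for Scd and 2 CCAAT for Scd2. These sequences and those of Srebf1, the member closest to the threshold, are printed 5′ to 3′ on the strand of the gene, with motif matches in capitals. Scd lies at chr1:253231682-253231981 (minus strand), Scd2 at chr1:253118127-253118426 (plus strand), and the Srebf1 starts at chr10:45518961-45519260 and chr10:45529115-45529414 (minus strand).
Scd: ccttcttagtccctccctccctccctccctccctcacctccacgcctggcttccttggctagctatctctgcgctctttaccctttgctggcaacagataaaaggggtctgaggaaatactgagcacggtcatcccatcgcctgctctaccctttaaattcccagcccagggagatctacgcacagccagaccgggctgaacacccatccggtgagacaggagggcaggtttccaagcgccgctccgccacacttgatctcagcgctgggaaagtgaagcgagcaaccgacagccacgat
Scd2: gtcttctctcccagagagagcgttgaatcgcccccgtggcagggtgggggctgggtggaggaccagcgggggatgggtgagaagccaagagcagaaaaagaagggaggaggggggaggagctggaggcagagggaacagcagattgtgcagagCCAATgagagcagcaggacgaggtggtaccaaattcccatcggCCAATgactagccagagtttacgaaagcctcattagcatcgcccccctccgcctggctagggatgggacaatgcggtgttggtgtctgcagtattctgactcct
Srebf1, start at the lower coordinate: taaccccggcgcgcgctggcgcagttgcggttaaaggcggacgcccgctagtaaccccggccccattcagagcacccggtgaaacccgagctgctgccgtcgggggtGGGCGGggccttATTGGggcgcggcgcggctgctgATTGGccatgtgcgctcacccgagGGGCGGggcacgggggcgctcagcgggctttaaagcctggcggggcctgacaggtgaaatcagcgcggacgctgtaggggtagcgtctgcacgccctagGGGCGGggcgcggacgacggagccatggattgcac
Srebf1, start at the higher coordinate: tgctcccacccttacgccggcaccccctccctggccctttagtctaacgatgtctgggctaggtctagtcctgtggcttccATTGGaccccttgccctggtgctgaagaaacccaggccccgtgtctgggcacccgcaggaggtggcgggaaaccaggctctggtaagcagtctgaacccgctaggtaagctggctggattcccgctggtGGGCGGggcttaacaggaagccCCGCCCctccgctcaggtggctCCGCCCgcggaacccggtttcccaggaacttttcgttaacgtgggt
A match is a run of letters and not a measured binding site, and the absence of one says only that these letters are not in this window.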

How the data were processed

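The authors deposited counts of reads for each Ensembl gene in each library, as whole numbers and without normalization. The submitters' processing notes name FastQC, Trimmomatic, HISAT2, featureCounts, DESeq2 and the mouse build mm10, while the table holds rat genes. The sources used here do not name the rat build, or say whether counting used strand and how it treated shared reads, and gene lengths were not used. The most abundant gene of a marker list is the one with the highest normalized CPM, without correction for length.

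Counts were analysed with edgeR 4.0.16 in R 4.3.3 (trimmed mean of M-values, filterByExpr with a minimum count of 10, quasi-likelihood test, Benjamini-Hochberg adjustment over all genes tested, no fold threshold). Control replicates 2 and 3 were summed as 1 sample. Standard errors are the log2 fold change over the square root of the F statistic, and confidence intervals use its degrees of freedom. P-values of the fits set the group difference against a spread estimated with information shared over genes. In the fits that keep the 6 libraries, the near-identical pair enters as separate samples, so their p-values do not measure spread between rats alone. Log2 CPM used a prior count of 2. Exact permutation tests compared mean normalized CPM, 2-sided, over the distinct samples. Total counts were 15560728 to 17942989 per library, and limits given for a count of 0 cover counting error only.

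The 10 genes and all lists were chosen with earlier results of these data known. The 7 role lists cover acetyl-CoA supply, NADPH supply, chain building, elongation, desaturation, triglyceride assembly and regulators, and the 13 marker lists the cell types in the text. Named genes are the 10, other lipid synthesis genes called in the distinct samples or in the 6 libraries, marker genes called in the distinct samples, and the 5 of most like profile. Others are named from the lists after their values were seen. Some genes of these lists are not reported here. Alternatives were DESeq2 1.42.0, limma-voom (limma 3.58.1), RLE and upper quartile normalization, library totals, no filter, a minimum count of 30, an added absolute log2 fold change above 1, a robust fit, the 6 libraries with and without the replicate number as a block, and each distinct sample left out. The fitting step was tested on simulated data, where a larger share of the calls was false with DESeq2 than with edgeR or limma-voom. Calls by DESeq2 alone are therefore less certain. Figures used matplotlib.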

Additional observations from a re-analysis of the deposited data

How the results depend on the processing

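With the near-identical Control pair kept as separate samples (6 libraries), edgeR called 2727 genes, 1 of the 10 lipogenesis genes and 6 of the other lipid synthesis genes, whose median log2 fold change was 0.035. DESeq2 called 2572 genes, 1 of the 10 and 3 of the others, and without a filter on low counts the median of the others was 0.0055. Leaving out each distinct sample in turn gave 0 to 280 called genes, 0 of the 10 and 0 of the others, with medians of 0.12 to 0.51 for the 10 and 0.0082 to 0.11 for the others, and these fits have 1 sample fewer. Acly turned below 0 with DESeq2 (-0.0078), RLE normalization (-0.0076) and no filter (-0.033), and ranged from -0.13 to 0.094 with a sample left out. Elovl6 stood at -0.0015 without a filter and at -0.32 to 0.51 with a sample left out, and Scd2 at -0.074 to 0.40. The cause was not tested where it does not lie in the number of samples or genes. The 8 other lipogenesis genes kept log2 fold changes above 0 under every alternative run, and of 160 values for the 10 genes, 151 were above 0. These values are refits of the same libraries and are not independent. The robust fit and the added fold threshold repeat the log2 fold changes of the main fit. Chosen after seeing the data, other scalings left 4 to 5 of the 10 without overlap between the groups. The share of all genes tested that lay wholly above Control was 21.8% under the main scaling. It was not worked out under the others, so these counts have no share to be read against.

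With the replicate block, the 6 libraries gave 741 called genes, 1 of the 10 (Srebf1, adjusted p = 0.046), 1 of the others (Pc), a median of 0.039 for the others and -0.0046 for Acly. Same-numbered libraries of the 2 groups had correlations of -0.326, -0.282 and -0.0756 between their deviations from the group means, so the numbers were not taken as pairs.

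With 3 against 2 distinct samples, no exact test can go under 0.1, and confidence intervals of Scd, Thrsp and Fasn include both no difference and large ones. Elovl6 rests on 33 to 80 counts per library. Reads of overlapping genes and of Scd and Scd2 could not be separated.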
